A study of Mus musculus with 8 samples.

Results

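The genes described here are 38 mouse genes of homologous recombination and of the DNA repair pathways around it. They were chosen by name, with no measured value in the rule, but with earlier results of these data known. Of the 38 genes, 37 had at least 1 probe set that the array's gene annotation assigns to them alone, 80 probe sets among 45037. Xrcc2 had none and was not analysed here. A filter on dim signals, which asked for a log2 intensity of 4 or more on 4 or more of the 8 arrays, kept 75 of the 80, which stand for 36 genes among the 17389 genes tested. Bard1 was left out by that filter, since its single probe set lay between 2.84 and 4.26 on the log2 scale.

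The series asks how histone acetylation relates to genes lowered in models of Huntington's disease. RNA came from the mouse cell lines SThdh7/7 and SThdh111/111 and was hybridised to Affymetrix expression arrays, 4 samples per line. Lines of these names are striatal precursor cells from embryos of knock-in mice, in which both alleles of Htt, the huntingtin gene, encode a polyglutamine stretch of the stated number, 7 or 111. The longer stretch models the disease. Both lines were made to divide with a temperature-sensitive SV40 large T antigen, a viral protein that binds the retinoblastoma protein and p53, so cells of either genotype carry it. Each genotype is represented by a single line, so the Htt alleles and any other difference between the lines cannot be told apart. Whether the 4 samples of a line were separate cultures is not given in the labels, and p-values then measure only the spread between these samples. In RNA from whole cultures, fewer dividing cells and less RNA per cell cannot be told apart either.

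Homologous recombination repairs a double-strand break by copying the sister chromatid, and it therefore acts mainly in S and G2 phases. The break is sensed and trimmed to single-stranded DNA, on which BRCA proteins load the recombinase, while checkpoint kinases halt the cell cycle and the Fanconi anaemia proteins deal with crosslinks. End joining, mismatch repair and base excision repair handle other lesions. Many of these genes are transcribed at the entry into S phase under E2F factors, which the retinoblastoma protein restrains. In Huntington's disease mismatch repair has a further role, since it drives the lengthening of the CAG repeat that encodes the polyglutamine stretch.

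As a group, the repair genes were lower in SThdh111/111. Taking for each gene its brightest probe set, 23 of 36 fell and none rose (limma, adjusted p under 0.05 over all probe sets), and without adjustment 25 were lower and 0 higher at p under 0.05. That is 63.9% of the repair genes called lower, against 15.9% of all genes tested, while 13.1% of all genes were called higher. For each of the 23, the 4 arrays of SThdh111/111 lay below the 4 of SThdh7/7, and for none of the 36 was it the other way round. Over all genes tested, 17.3% were separated in the lower direction and 14.3% in the higher.

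The difference was moderate in size. Its median over the 36 genes was -0.59 (SThdh111/111 minus SThdh7/7, log2 intensity), against -0.09 over all genes tested. Of the 23 falls, 8 were at least 2-fold (22.2% of the repair genes, against 5.39% of all genes tested) and 15 were smaller. Rad54b, 1 of the 8, reached 2-fold only through values under the floor described below. The median level of the 36 genes was 9.00, 9.09, 8.95 and 8.91 on SThdh7/7 samples 1 to 4, and 8.34, 8.37, 8.15 and 8.36 on SThdh111/111 samples 1 to 4. The lines did not overlap, while the median over all genes tested was 8.28 to 8.44 and 8.23 to 8.30. Counted by probe set, 35 of the 75 were called lower (46.7%) and none higher, against 12.6% lower and 9.87% higher over all probe sets. Centring each array on its median left 14 of the 36 genes called lower and 0 higher, where 8.34% of all genes tested were lower. Centring without SThdh7/7 samples 1 and 2, the arrays with the highest medians, left 19, where 13.1% of all genes tested were lower.

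**Figure D1:**
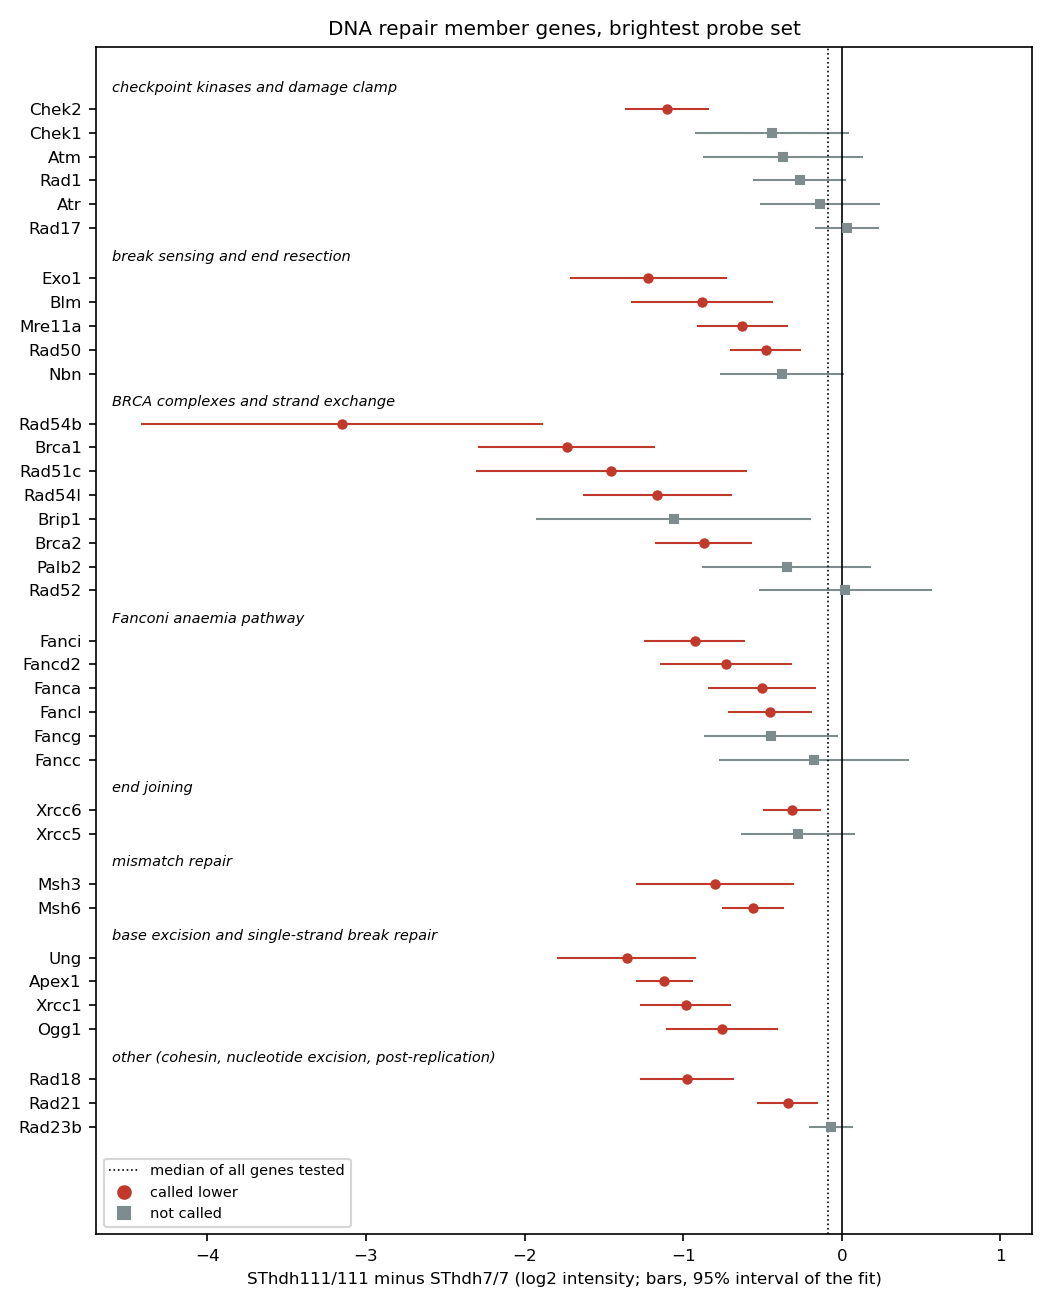
Difference between the lines (SThdh111/111 minus SThdh7/7, log2 intensity, x axis) for the 36 repair genes tested, by role, with the 95% interval of the fit; circles are genes called lower and squares genes not called. The 23 called genes lie left of 0 and of the median of all genes (dotted line), from -3.15 to -0.31, and the 13 others lie between -1.06 and 0.03.

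The drop went with a larger one in genes of the dividing cell. Of 19 S phase genes 18 fell and none rose, with a median difference of -1.49, and all 11 measured G2 and M phase genes fell, with a median of -1.69. Among them Rrm2, a subunit of ribonucleotide reductase, measured 12.45 ± 0.02 in SThdh7/7 and 10.59 ± 0.09 in SThdh111/111 (log2, SD, n = 4). Mcm2, of the replicative helicase, measured 12.13 ± 0.04 and 10.52 ± 0.07. The differences were -1.85 for the helicase gene Mcm3, -1.52 for the mitotic kinase gene Cdk1, -1.84 for the anaphase activator gene Cdc20 and -1.75 for the topoisomerase gene Top2a. Summed over the S phase genes, intensity ranged from 63796 to 70319 in SThdh7/7 and from 25409 to 27299 in SThdh111/111. That of the G2 and M phase genes was 15039 to 16952 and 4721 to 5100. The part of cell division in the lower repair genes was not tested.

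**Figure D2:**
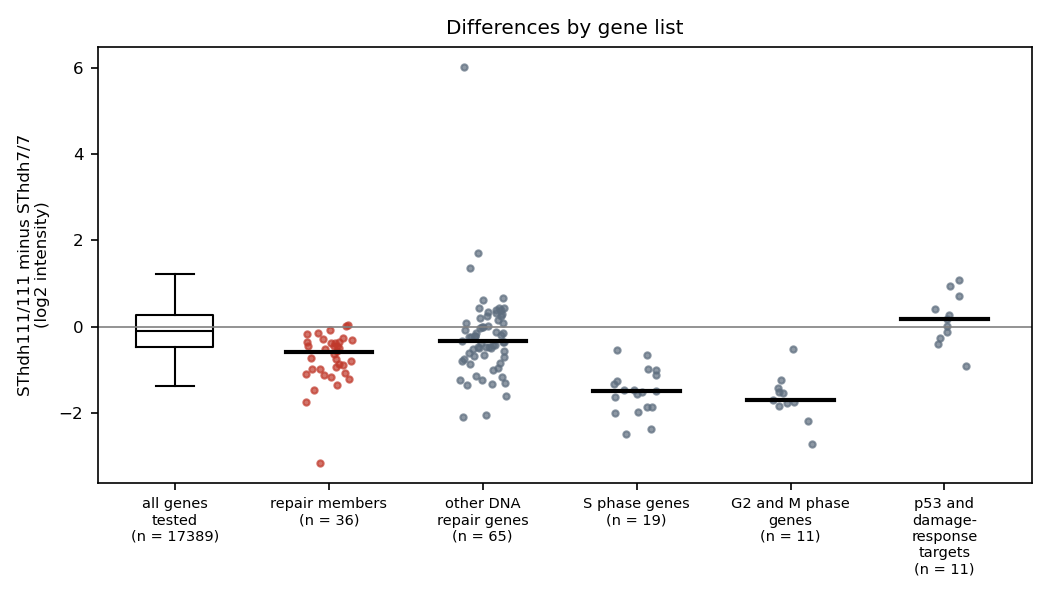
Differences between the lines (log2 intensity, y axis) for the repair genes and other gene lists; each point is a gene, the bars are medians, and for all genes tested the box spans the quartiles with whiskers at the 5th and 95th percentiles. The repair genes (median -0.59) lie between the other DNA repair genes (-0.33) and the S phase genes (-1.49).

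The arrays also differed in their overall signal and in their controls. SThdh7/7 samples 1 and 2 had median intensities of 174, against 136 to 147 on the other 6. A floor for dim signals was taken from 27 bacterial control probe sets, whose 95th percentile reached 7.02 on the log2 scale on the highest array; it lay between 6.62 and 7.02 in SThdh7/7 and between 6.17 and 6.28 in SThdh111/111. Of the 36 repair genes, 29 were above that floor on all 8 arrays. Below, where some arrays of a gene lay under the floor, its difference is also given with those values set to it. Without SThdh7/7 samples 1 and 2, 19 of the 36 genes were called lower and 0 higher, with a median of -0.64. Of all genes tested, 13.7% were then called lower.

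Markers of cell types were checked alongside. Of the striatal projection neuron markers 8 of 10 were measured, 1 higher and 1 lower, and the receptor gene Drd1 and the phosphoprotein gene Ppp1r1b were under the floor on every array. Of 5 neural progenitor markers measured 4 were lower: Nes (-1.38), Sox2 (-2.06), Hes1 (-2.12) and Pax6, which was under the floor on every SThdh111/111 array and at least 6.97-fold lower. Their summed intensity, 51440 to 57250 against 46946 to 50858, was mostly that of Vim, which measured 15.50 in both lines. Of 6 fibroblast markers 5 were higher in SThdh111/111, with sums of 8509 to 9876 against 62633 to 75146, and none was under the floor on all arrays. Of 7 microglia and blood markers 4 were under the floor throughout, Cd68 was lower (-1.75) and Csf1r higher (0.49), and the sums were 2018 to 2365 against 1245 to 1437. Of 5 astrocyte markers Aldh1l1 was lower (-2.47) and Slc1a3 higher (1.82), S100b was under the floor throughout, and the sums were 1803 to 2382 against 1044 to 1266. The part of these markers in the repair gene result was not tested.

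Because the genes moved together, their promoters were searched for the E2F words and for 2 other promoter words of cell cycle genes, in RefSeq sequence of assembly GRCm38.p6 (250 bases before to 50 after the start). Of the 38 genes 31 had an entry, 35 promoters in all. The E2F words TTTGGCGC, TTTCGCGC, TTTCCCGC and TTTGGCGG, on either strand and allowed to overlap, were found in 10 of the 35 (28.6%), against 3.5% of the promoters of all genes tested and 2.37% of all promoters. S phase genes had them in 7 of 16 promoters. Among genes called lower the words occurred in 7 of 21 promoters, and among those not called in 2 of 13. The CCAAT box (CCAAT, either strand) was in 51.4% against 37.1% for all genes tested, and the cell cycle words TTTGAA and TTCGAA (CHR, either strand) in 8.57% against 14.8%. Median GC content was 60.3% in these promoters and 58.7% in those of all genes tested. A match is a description of the letters and not evidence of binding.

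The 250 bases before the start are shown for the 4 genes called lower whose E2F words lie wholly before it, 5′ to 3′ on the gene's strand, with those words in capitals. They are Brca2 (chr5:150522371-150522620, plus strand), Chek2 (chr5:110839733-110839982, plus strand), Msh3 (chr13:92355004-92355253, minus strand) and Xrcc6 (chr15:82016119-82016368, plus strand).
Brca2: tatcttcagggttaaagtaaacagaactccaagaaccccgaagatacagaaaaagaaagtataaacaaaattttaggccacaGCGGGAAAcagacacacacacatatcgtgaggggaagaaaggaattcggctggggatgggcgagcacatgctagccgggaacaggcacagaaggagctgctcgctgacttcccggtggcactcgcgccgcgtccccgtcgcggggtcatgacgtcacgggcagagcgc
Chek2: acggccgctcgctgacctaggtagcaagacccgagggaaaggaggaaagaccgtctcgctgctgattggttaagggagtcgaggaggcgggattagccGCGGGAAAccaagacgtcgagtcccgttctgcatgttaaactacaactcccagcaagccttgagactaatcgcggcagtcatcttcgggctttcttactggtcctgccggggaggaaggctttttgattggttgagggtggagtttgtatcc
Msh3: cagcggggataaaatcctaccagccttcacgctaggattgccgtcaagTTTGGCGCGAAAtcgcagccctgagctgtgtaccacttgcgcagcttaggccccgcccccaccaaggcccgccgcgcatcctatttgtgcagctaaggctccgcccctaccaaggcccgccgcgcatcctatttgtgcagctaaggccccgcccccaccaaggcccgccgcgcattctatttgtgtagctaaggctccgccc
Xrcc6: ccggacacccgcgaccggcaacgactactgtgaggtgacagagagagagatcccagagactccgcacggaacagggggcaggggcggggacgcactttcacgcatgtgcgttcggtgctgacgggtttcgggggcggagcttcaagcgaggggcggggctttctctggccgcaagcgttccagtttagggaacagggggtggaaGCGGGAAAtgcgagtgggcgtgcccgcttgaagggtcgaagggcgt
In Msh3 a pair of words on opposite strands overlaps, 202 and 198 bases before the start. The word begins 168 bases before the start in Brca2, 152 in Chek2 and 46 in Xrcc6. Msh6 and Rad51c, also called lower, held words that lie across or after a start.

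**Figure D3:**
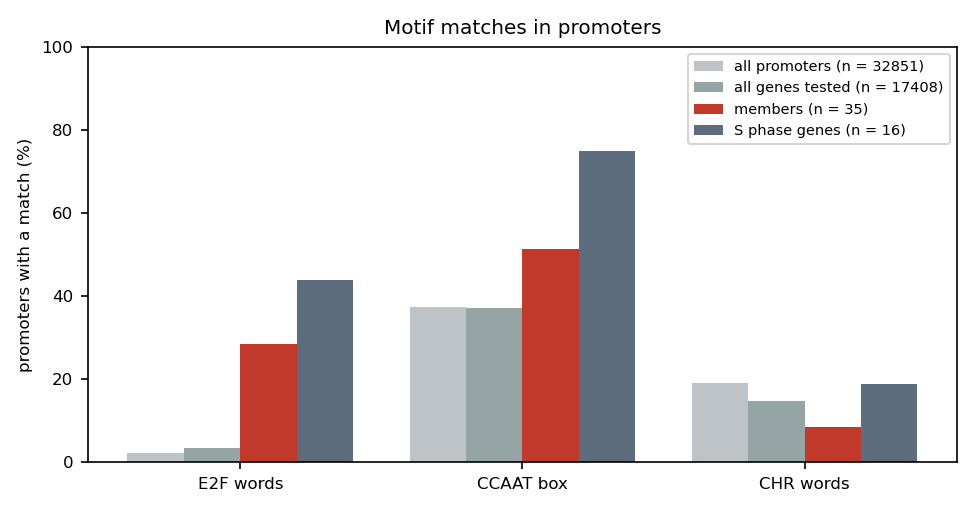
Share of promoters with at least 1 match (%, y axis) to the E2F words, the CCAAT box and the CHR words, for all promoters, those of all genes tested, those of the repair genes and those of S phase genes. E2F words were in 28.6% of repair gene promoters and in 3.5% of those of all genes tested.

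Of the 6 checkpoint genes among the repair genes, 1 fell (16.7%), near the 15.9% of all genes tested that were called lower. Chek2, which encodes a kinase activated by double-strand breaks, measured 10.00, 9.91, 9.83 and 9.90 (log2 intensity) on the SThdh7/7 arrays and 8.71, 8.83, 9.12 and 8.59 on the SThdh111/111 arrays. The lines were far apart, and Chek2 fell to 46.7% of its SThdh7/7 level (difference -1.10 ± 0.12, SE; adjusted p = 1.4e-05). Atm and Atr, the apical kinases that respond to breaks and to stalled forks, differed by -0.37 (95% interval -0.88 to 0.13; adjusted p = 0.32) and -0.14 (-0.51 to 0.24; adjusted p = 0.67). For both, the lines overlapped. Another Atm probe set differed by -0.86, and other Atr probe sets by -0.85 and -1.43. None of these was called, and all were under the floor on some or all arrays. Chek1, the kinase downstream of Atr, measured 7.82 to 8.67 in SThdh7/7 and 7.45 to 8.09 in SThdh111/111 at its brightest probe set, a difference of -0.44 (adjusted p = 0.20). A dimmer Chek1 probe set, above the floor on 1 of 4 SThdh111/111 arrays, was called lower (-0.94; adjusted p = 0.041), and averaging the kept Chek1 probe sets gave a call too (-0.94; adjusted p = 0.046). That average takes in the dimmer probe set and others under the floor on all or nearly all arrays.

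Of the checkpoint clamp and its loader, the repair genes held Rad1 and Rad17, and neither was called. Rad17, which loads the checkpoint clamp, measured 9.99, 9.99, 10.23 and 10.23 in SThdh7/7 and 10.09, 10.03, 10.27 and 10.17 in SThdh111/111. The lines overlapped fully, and the interval of the difference, -0.17 to 0.23, holds no change as large as the median fall of the repair genes. Rad1, a subunit of that clamp, differed by -0.26 (-0.56 to 0.03; adjusted p = 0.21). Of the other clamp subunits, in the wider repair list below, Rad9a was called lower (-0.43, adjusted p = 0.0043). Hus1 was not (-0.21, adjusted p = 0.36).

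Break sensing and end resection genes fell in 4 of 5 cases (80%, against 15.9% of all genes tested). Exo1, an exonuclease that trims DNA ends and also serves mismatch repair, measured 7.96, 8.17, 8.44 and 8.25 in SThdh7/7 and 6.95, 7.04, 6.70 and 7.25 in SThdh111/111. The difference was -1.22 ± 0.23 (SE; adjusted p = 0.0013), or -1.12 with values under the floor set to it. Its second probe set fell as well (-1.64), and another, under the floor on all arrays, was not called (-1.83). Blm, the helicase gene mutated in Bloom syndrome, measured 8.35, 8.53, 8.30 and 8.11 against 7.10, 7.75, 7.38 and 7.54. It was lower by 0.88 ± 0.21 (SE), with adjusted p = 0.0066; without SThdh7/7 samples 1 and 2 the adjusted p was 0.058.

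The 3 genes of the MRN complex, which binds broken ends first, moved less. Mre11a, its nuclease, measured 8.93, 9.24, 9.18 and 9.07 in SThdh7/7 and 8.32, 8.44, 8.50 and 8.65 in SThdh111/111. Rad50, its ATPase, measured 9.97, 9.90, 9.74 and 9.75 against 9.48, 9.42, 9.39 and 9.17. Neither overlapped between the lines, and they fell to 64.7% and 71.7% of the SThdh7/7 level (adjusted p = 0.0031 and 0.0038). A second Mre11a probe set differed by -0.18 and a second Rad50 probe set, dim in both lines, by 0.28, neither called. Both calls were lost after centring of the arrays (-0.47 and -0.33; adjusted p = 0.073 and 0.091). Averaging the probe sets of Rad50 left -0.10 (adjusted p = 0.80). Nbn, the adaptor of the complex, measured 9.13 to 9.95 against 8.77 to 9.38, a difference of -0.38 (-0.77 to 0.01; adjusted p = 0.17) that was called without SThdh7/7 sample 3 (-0.52; adjusted p = 0.047).

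Genes of the BRCA complexes and of strand exchange held the largest falls, with 5 of 8 called (62.5%, against 15.9% of all genes tested). Brca1, which directs broken ends into recombination, measured 8.58, 8.66, 8.73 and 8.55 in SThdh7/7. In SThdh111/111 it measured 6.24, 6.76, 7.43 and 7.16, with 2 of 4 arrays under the floor. The difference was -1.73 ± 0.26 (SE; adjusted p = 2.0e-04), or -1.47 with the floor applied. Of its 3 other probe sets 2 were called lower and 1 differed by 0.04. Brca2, which loads the recombinase and whose promoter is shown above, measured 9.22, 9.37, 9.09 and 9.06 against 8.27, 8.41, 8.07 and 8.51. All 8 values were above the floor, and it fell to 54.7% of its SThdh7/7 level (difference -0.87 ± 0.14, SE; adjusted p = 4.0e-04).

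The partners of these proteins were dimmer and less certain. Brip1, the helicase bound by Brca1, exceeded the floor in 3 SThdh7/7 samples and in 0 of SThdh111/111. Its difference of -1.06 was not called (adjusted p = 0.080), and with the floor applied it was -0.33 (adjusted p = 0.32). Without SThdh7/7 sample 3, and with no floor, it was called (-1.28; adjusted p = 0.046). Palb2, which links Brca1 to Brca2, measured 7.51 to 8.11 against 7.02 to 7.77 and overlapped (-0.35; adjusted p = 0.38).

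Among the strand exchange genes, Rad54l encodes a motor protein that helps the recombinase invade the sister chromatid. It measured 8.69, 8.49, 8.76 and 8.56 in SThdh7/7 and 7.92, 7.06, 7.68 and 7.19 in SThdh111/111, a fall to 44.7% (adjusted p = 0.0013). Both of its other kept probe sets differed by -1.07 and -1.17 without being called, and both were under the floor on nearly every array. Rad51c, a paralogue of the recombinase, measured 9.37, 9.31, 9.00 and 9.05 against 8.57, 7.46, 6.32 and 8.58. The SThdh111/111 arrays spread widely, and the difference was -1.45 (adjusted p = 0.016), or -1.28 and not called with the floor applied (adjusted p = 0.069). It was not called without SThdh7/7 samples 1 and 2 either (-1.29; adjusted p = 0.13). Its second probe set, above the floor on all arrays, fell too (-0.79; adjusted p = 0.0071).

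Rad54b, a relative of Rad54l, had the lowest fitted difference of the 36 genes at -3.15, but it rested on dim values. It measured 7.30, 6.72, 7.22 and 7.28 in SThdh7/7 and 3.37, 3.51, 3.58 and 5.45 in SThdh111/111. With the floor applied the difference was -0.18 and was not called (adjusted p = 0.090), and just 1 SThdh111/111 array passed the filter. Rad52, an annealing protein, showed no such difference: it measured 7.51 to 8.61 and 7.59 to 8.38, with an interval of -0.52 to 0.57.

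**Figure D4:**
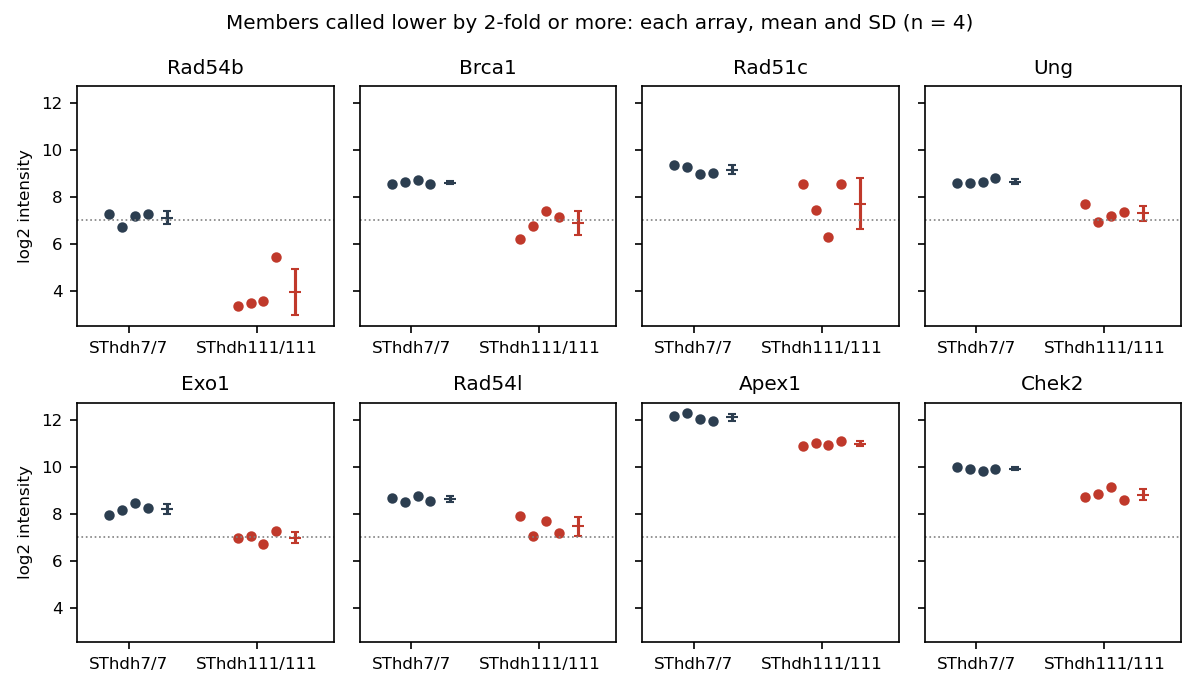
Log2 intensity (y axis) on each array for the 8 repair genes that fell at least 2-fold, SThdh7/7 in dark and SThdh111/111 in red, with mean and SD (n = 4) beside the points and the floor as a dotted line. The lines do not overlap in any panel; Rad54l, Apex1 and Chek2 are above the floor throughout, while Rad54b is below it on every SThdh111/111 array.

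Of the 6 Fanconi anaemia pathway genes among the repair genes, 4 fell (66.7%, against 15.9% of all genes tested). Fanci and Fancd2 encode the pair of proteins that clamps onto a crosslinked fork. Fanci measured 9.02, 9.09, 8.94 and 8.90 in SThdh7/7 and 8.24, 8.02, 7.80 and 8.18 in SThdh111/111, a fall to 52.6% (adjusted p = 3.4e-04). Fancd2 measured 8.39, 8.32, 8.54 and 8.26 against 7.77, 7.31, 7.93 and 7.60, a fall to 60.4% (adjusted p = 0.014). The Fancd2 call was lost after centring (adjusted p = 0.085) and when its 4 probe sets were averaged (-0.49; adjusted p = 0.31).

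The core complex marks that pair with ubiquitin, and those of its genes that are among the repair genes moved less. Fancl, its ubiquitin ligase, measured 9.19 to 9.30 against 8.59 to 9.00 (difference -0.45; adjusted p = 0.016), and was not called without SThdh111/111 sample 2 (-0.38; adjusted p = 0.055). The Fancl call was also lost after centring, and without SThdh7/7 samples 1 and 2. Fanca differed by -0.50 (adjusted p = 0.035). Leaving out any of SThdh7/7 samples 1 and 2 or SThdh111/111 samples 1, 2 and 4 ended its call, with differences of -0.53 to -0.41 (adjusted p from 0.053 to 0.10). Centring ended the Fanca call too. Fancg differed by -0.45 (-0.87 to -0.03; adjusted p = 0.13) and Fancc by -0.18 (-0.78 to 0.42; adjusted p = 0.73), and for both the lines overlapped. Core complex genes in the wider repair list below moved both ways. Fancb was under the floor on every SThdh111/111 array and at least 1.65-fold lower (adjusted p = 0.0013). Fancf was called higher (0.38, adjusted p = 0.011), and Fance (0.15) and Fancm (-0.24) were not called.

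All 4 base excision and single-strand break repair genes among the repair genes fell, where 15.9% of all genes tested were called lower. This pathway removes a damaged base, cuts the strand and refills the gap. Ung, which removes uracil from DNA, measured 8.62, 8.59, 8.64 and 8.82 in SThdh7/7 and 7.72, 6.97, 7.20 and 7.35 in SThdh111/111. It fell to 39.04% (difference -1.36; adjusted p = 1.9e-04). With the 1 SThdh111/111 array under the floor set to it, the difference was -1.34. Ogg1, which removes oxidised guanine, measured 9.05, 8.65, 8.95 and 8.69 against 8.37, 7.93, 8.07 and 7.95, a fall to 59.2% (adjusted p = 0.0037). Its second probe set was not called (-0.35), nor was the mean of both (-0.55; adjusted p = 0.14).

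Apex1, the endonuclease that cuts at the abasic site, was bright and had the lowest adjusted p of the repair genes. It measured 12.14, 12.27, 12.04 and 11.94 in SThdh7/7 and 10.88, 11.03, 10.91 and 11.11 in SThdh111/111. The spread within a line was a small part of the gap, and Apex1 fell to 46.1% (difference -1.12 ± 0.08, SE; adjusted p = 2.4e-07). Its 2 other probe sets differed by -1.30 and -0.93, both called. Xrcc1, the scaffold that gathers the ligase and polymerase at a nick, measured 10.50, 10.58, 10.56 and 10.11 against 9.13, 9.61, 9.49 and 9.57. It fell to 50.5% (adjusted p = 7.5e-05). Base excision genes in the wider repair list below did not all fall. Parp1, Lig1, Fen1, Neil1 and Mbd4 were called lower. The polymerase gene Polb (-0.04), the ligase gene Lig3 (0.21), Nthl1, Mutyh, Neil3 and Smug1 were not called, and Mpg was called higher.

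Both mismatch repair genes among the repair genes were called lower, where 15.9% of all genes tested were. Msh6 recognises single mismatches, and Msh3 small loops, the form that a slipped CAG repeat takes. Msh6 measured 11.03, 10.89, 10.95 and 11.21 in SThdh7/7 and 10.53, 10.60, 10.34 and 10.36 in SThdh111/111 (difference -0.56 ± 0.09, SE; adjusted p = 4.0e-04; 0.077 after centring). Msh3 measured 7.72, 7.93, 8.08 and 8.02 against 6.85, 7.07, 7.29 and 7.35, near the floor, and the difference was -0.80 ± 0.23 (SE; adjusted p = 0.023), or -0.755 with the floor applied. Its call ended without SThdh7/7 sample 3 or 4 or SThdh111/111 sample 1 or 2, where the difference was -0.77 to -0.70 (adjusted p from 0.052 to 0.065). Msh3 was not called after centring or quantile normalization either. Its 2 other kept probe sets, under the floor on some or all arrays, differed by -0.05 and 0.98, and the mean over its probe sets was 0.04 (adjusted p = 0.95).

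A wider list of 10 genes tied to CAG repeat instability, which holds Msh3, Msh6 and Ogg1, had 7 measured members. Of these 5 fell (71.4%) and none rose, where 15.9% of all genes tested were lower and 13.1% higher. The replicative ligase gene Lig1 measured 10.40 ± 0.17 in SThdh7/7 and 9.05 ± 0.28 in SThdh111/111 (log2, SD, n = 4; adjusted p = 6.1e-06). Pms2, a MutL subunit gene, measured 9.04 ± 0.26 and 7.88 ± 0.37 (adjusted p = 7.6e-04). Pms1 and Mlh3, other MutL subunits, differed by -0.46 (adjusted p = 0.14) and -0.24 (adjusted p = 0.58).

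Of the remaining 5 genes, in end joining, lesion bypass, cohesion and nucleotide excision repair, 3 fell, where 15.9% of all genes tested were called lower. Rad18, a ubiquitin ligase that lets forks pass lesions, measured 8.98, 9.05, 8.95 and 8.93 in SThdh7/7 and 7.91, 7.93, 8.01 and 8.16 in SThdh111/111. It fell to 50.8% (difference -0.98 ± 0.14, SE; adjusted p = 1.2e-04), and 2 of its 3 other probe sets fell too. Of the Ku heterodimer, which starts end joining, Xrcc6 measured 10.35, 10.13, 10.33 and 10.23 against 10.04, 9.92, 9.89 and 9.93. It was lower by a small amount (-0.31; adjusted p = 0.015), not called after centring (-0.16; adjusted p = 0.50). Its partner Xrcc5 differed by -0.27 (-0.63 to 0.09; adjusted p = 0.30), and the lines overlapped.

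Rad21, a cohesin subunit that holds sister chromatids together, measured 12.08, 12.09, 12.39 and 12.47 against 11.95, 11.93, 11.95 and 11.85 (-0.34; adjusted p = 0.012). That call was lost after centring (-0.19; adjusted p = 0.52), and the difference was -0.51 without SThdh7/7 samples 1 and 2. Rad23b, which helps recognise lesions for nucleotide excision repair, measured 11.48 to 11.66 and 11.47 to 11.55. Its interval, -0.20 to 0.07, holds neither a fall nor a rise of the size seen in Rad18.

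The 13 genes not called were mostly on the low side too: 11 of 13 had a difference below 0, as had 9887 of all 17389 genes tested. The interval of 11 held 0, and that of 1, Brip1, reached a 2-fold fall. None reached a 2-fold rise. The called genes lay on 12 chromosomes, the same number as all 36.

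Other probe sets assigned to a gene serve as a check on the brightest, but whether they read the same transcripts was not tested. Beside the brightest there were 39 kept probe sets, of which 12 were called lower and none higher, and 35 had the sign of their gene's brightest. The 4 of opposite sign were those of Rad50 (0.28), Brca1 (0.04), Msh3 (0.98) and Rad23b (0.72), none called. Of genes called lower, Fanca (-0.51), Rad21 (-0.04), Rad18 (-0.69) and Fancd2 (-0.69, -0.45 and -0.08) also had probe sets that were not called. Of 15 genes called lower with another kept probe set, 4 had every other one called lower as well. Of the 39, 9 were under the floor on all 8 arrays, where a difference has little meaning. The member probe sets called include 1 of that kind, of Xrcc6 (-1.97).

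**Figure D5:**
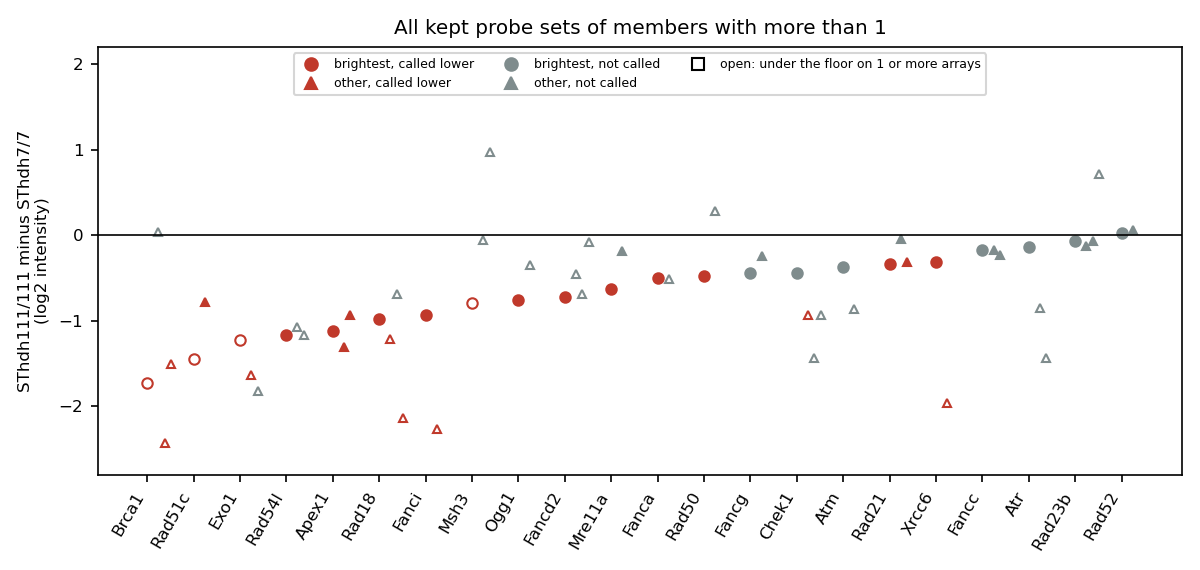
Difference between the lines (log2 intensity, y axis) for every kept probe set of the repair genes that have more than 1, ordered by the brightest (circles); triangles are the other probe sets, red is called lower, grey not called, and open symbols were under the floor on at least 1 array. Of the other probe sets 12 were called lower and 0 higher, and the highest, of Msh3 at 0.98, was under the floor on all arrays.

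The repair genes were set beside 75 further repair genes, listed by pathway, of which 65 were measured. Of these 20 fell (30.8%) and 7 rose (10.8%), with a median of -0.33. The falls included Rpa1, which coats single-stranded DNA and measured 13.51 ± 0.07 and 12.52 ± 0.08 (log2, SD, n = 4; adjusted p = 4.5e-08). The checkpoint scaffold gene Topbp1 differed by -1.24 and Ube2t, the ubiquitin carrier of the Fanconi pathway, by -1.30. Ddb1 and Trp53bp1, which act in ultraviolet damage recognition and in end joining, rose by 0.39 ± 0.06 and 0.44 ± 0.08 (SE). Mpg, a glycosylase that removes alkylated bases, was under the floor on all SThdh7/7 arrays and at 10.28 ± 0.14 in SThdh111/111, at least 9.61-fold higher (adjusted p = 4.5e-09). A second Mpg probe set was at least 2.65-fold higher. Whether the 2 lists of repair genes differ was not tested.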

How the data were processed

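Total RNA of 8 samples was labelled with biotin and hybridised to Affymetrix arrays, per the labels' protocols. The deposited values are 1 linear intensity per probe set and array; their mean, with 2% trimmed from each end, was 500.0 on every array. GCRMA is the only tool in the submitters' processing notes, but the intensity values deposited by the authors have the form of MAS5 or GCOS signals, so the tool is not settled. With 4 arrays per line, their number sets the precision.

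The 64 control probe sets were left out and log2 taken, which makes dim probe sets noisy. Probe sets were named through the platform annotation where it gave 1 gene (34945; 932 had several and 9160 none), with symbols updated by Entrez number. The lines were compared in limma 3.58.1 under R 4.3.3 (lmFit, then eBayes fitted with a trend on mean intensity; two-sided) over all 41409 kept probe sets with Benjamini-Hochberg adjustment; this fit, or the same test under a stated alternative, gave every adjusted p. Simulated data with known changes were used to test it. The 38 genes, the lists and the tests were chosen with earlier results of these data known. The naming rule took all 38 genes, other probe sets that disagree, the 3 called genes with the lowest adjusted p per direction in each other repair, cell cycle, E2F and p53 list, and all of the CAG repeat list; cell type markers named were chosen after their values were seen. The further genes of the checkpoint clamp, the Fanconi core complex and base excision repair were also named after their values were seen. Lists are described by counts and medians beside those of all genes tested. The floor was chosen after seeing the data. Sample numbers did not pair the lines: deviations of same-numbered samples correlated at -0.01 to 0.01. Alternatives were other filters (none, 6, 8), quantile normalization, centring, an offset of 64, no trend, array weights, other probe set choices, a replicate block and samples left out. Figures were drawn with matplotlib 3.10.9.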

Additional observations from a re-analysis of the deposited data

Results flagged for a closer look

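Within groups of 4 arrays, a single array far from the other 3 was looked for in each of 36 repair genes and both lines, by the gap to the nearest array as a share of the range. Of 72 such groups 5 had one, and chance gives about 1 in 20. Rad1 measured 9.23 on SThdh7/7 sample 4, against 9.58 to 9.65 on the others. Xrcc1 measured 10.11 on the same array, against 10.50 to 10.58, and Fancl measured 9.19 on SThdh7/7 sample 3, against 9.29 to 9.30. Rad54b measured 6.72 on SThdh7/7 sample 2, against 7.22 to 7.30, and 5.45 on SThdh111/111 sample 4, against 3.37 to 3.58; both values are under the floor.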

How the results depend on the processing

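Under 22 alternatives, which tested 32 to 37 of the repair genes, 0 were called higher in each and 14 to 24 lower. The share of all genes tested that were called lower moved as well. It ran from 8.34% after centring (14 of 36 repair genes) to 27.8% with the filter at 8 (21 of 32). Leaving out 1 sample gave 20 to 24 genes and 30 to 34 probe sets lower, with medians of -0.63 to -0.58. Centring of the arrays called 14 genes and 21 probe sets lower, with a median of -0.44. With values under the floor set to it, chosen after seeing the data, 19 genes were lower and the median was -0.49. Of all genes tested, 13.8% were lower in that setting. Of the other DNA repair genes 4 were higher, not 7, without an intensity trend, without probe sets ending in _x_at, _s_at or _a_at, and on averaging the probe sets of each gene. That averaging reversed Msh3 (0.0418, not called). The sample numbers did not pair the lines; the replicate block called 22 genes and 32 probe sets lower and ended the call of Fanca (adjusted p = 0.073) and no other. Of the 23 genes called lower, 10 kept the call in every alternative that tested them: Apex1, Brca1, Brca2, Chek2, Exo1, Fanci, Rad18, Rad54l, Ung and Xrcc1. Depth has no counterpart on arrays; signal near the floor limits Rad54b, Brca1, Exo1, Ung, Rad51c, Msh3 and Brip1.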

Other observations

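Regulators of cell cycle genes were measured as well, and their part in the lower S phase genes was not tested. Of 19 genes listed as E2F and DREAM regulators 10 were called lower in SThdh111/111 (52.6%) and none higher, with a median difference of -0.42. Over all genes tested, 15.9% were lower and 13.1% higher, with a median of -0.09. Rb1, the retinoblastoma gene, measured 11.43 ± 0.14 in SThdh7/7 and 10.82 ± 0.09 in SThdh111/111 (log2, SD, n = 4; adjusted p = 7.4e-05). Lin9, a subunit of the DREAM complex, measured 8.36 ± 0.31 and 6.86 ± 0.16, with 1 SThdh111/111 array above the floor. E2f8 was under the floor on every SThdh111/111 array, and with the floor applied its difference was -0.32.

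A list of p53 and damage-response targets moved both ways, 4 of 11 measured higher (36.4%) and 2 lower (18.2%). Of all genes tested, 13.1% were higher and 15.9% lower. Btg2, an antiproliferative gene, rose by 1.08 ± 0.12 (SE), and the stress-response genes Gadd45g and Gadd45b by 0.94 ± 0.11 and 0.71 ± 0.10 (SE). Mdm2, the ubiquitin ligase of p53, differed by -0.90 (adjusted p = 2.1e-07) and the polo-like kinase gene Plk2 by -0.39, both called lower.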
